A study of Homo sapiens with 12 samples.

Results

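The glucocorticoid receptor gene NR3C1 and 7 genes known as targets of its receptor were followed across 22Rv1 prostate cancer cells exposed to 3 compounds. The 8 genes, NR3C1, TSC22D3, KLF9, PER1, ERRFI1, TFCP2L1, GLUL and ZBTB16, were chosen by symbol from the 18668 genes of the deposited table, and all 8 were found and passed the filter on low counts. 22Rv1 is an established human prostate cancer cell line, labelled wild type in all groups. Poly(A) RNA was sequenced after 24 h with a targeted degrader, with enzalutamide, a drug given against prostate cancer, with an autophagy-activating ligand, or with vehicle alone. Each of these 4 groups had 3 biologically independent libraries. All groups were kept in medium with fetal bovine serum, the labels name no glucocorticoid, and they give no doses, so the compounds are compared as they were applied.

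The glucocorticoid receptor is a nuclear receptor that waits in the cytoplasm in a complex with HSP90 and immunophilins, binds cortisol or a synthetic steroid, moves into the nucleus and regulates genes from steroid response elements in DNA. Other steroid receptors of its subfamily bind much the same elements, so that several genes known as glucocorticoid targets also respond to other steroids. In prostate cancer the receptor is known as a bypass that some tumours use after enzalutamide. Among the targets, TSC22D3 encodes the glucocorticoid-induced leucine zipper GILZ, KLF9 and ZBTB16 encode zinc-finger transcription factors, PER1 a repressor of the circadian clock, ERRFI1 an inhibitor that restrains signalling by the EGF receptor, TFCP2L1 a transcription factor of the CP2 family, and GLUL glutamine synthetase.

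Promoter windows from 250 bases before to 50 bases after the RefSeq start (GRCh38.p14) were matched for 7 of the 8 genes, all but ZBTB16. The windows of NR3C1 and TSC22D3, which were both higher with the degrader, and of PER1, which was lower with enzalutamide, are shown 5′ to 3′ on the gene's strand, which is the minus strand for each. They lie at chr5:143403234-143403533 for NR3C1, chrX:107716459-107716758 for TSC22D3 and chr17:8152355-8152654 for PER1. Capitals mark a forkhead element (GTAAACA or its reverse complement) in NR3C1, a cAMP response half-site (TGACG or its reverse complement) in TSC22D3 and an E-box (CACGTG), the element of the clock factors CLOCK and BMAL1, in PER1.

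NR3C1: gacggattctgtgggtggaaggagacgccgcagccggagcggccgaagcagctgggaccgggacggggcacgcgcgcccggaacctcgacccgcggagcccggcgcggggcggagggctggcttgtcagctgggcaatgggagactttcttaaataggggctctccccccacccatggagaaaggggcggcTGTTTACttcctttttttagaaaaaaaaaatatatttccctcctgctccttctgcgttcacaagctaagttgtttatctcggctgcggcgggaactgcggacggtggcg
TSC22D3: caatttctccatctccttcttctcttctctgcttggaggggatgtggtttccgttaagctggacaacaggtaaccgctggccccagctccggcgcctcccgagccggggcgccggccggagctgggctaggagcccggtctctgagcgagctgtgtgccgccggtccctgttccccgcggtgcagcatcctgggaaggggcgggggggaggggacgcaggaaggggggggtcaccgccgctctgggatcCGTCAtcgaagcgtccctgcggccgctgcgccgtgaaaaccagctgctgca
PER1: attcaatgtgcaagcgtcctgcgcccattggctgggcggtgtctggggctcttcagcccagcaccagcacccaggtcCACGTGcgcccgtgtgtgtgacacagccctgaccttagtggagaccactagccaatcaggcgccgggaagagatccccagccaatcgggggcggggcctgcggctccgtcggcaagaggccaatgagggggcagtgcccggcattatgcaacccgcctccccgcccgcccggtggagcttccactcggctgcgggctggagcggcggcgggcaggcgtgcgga

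Both strands of each window were searched. The steroid response half-site AGAACA was in 0 of the 7 windows and in 14.8% of 35116 promoter windows of this length; the full palindrome, this half-site and its reverse complement 3 bases apart, was in 0 of the 7 and in 1 of all windows. The forkhead element was in 3.42% of all windows, the E-box in 7.26% and the cAMP response half-site, part of the full element TGACGTCA, in 24.6%. That full element and the C/EBP-ATF element TGATGNAAT had 0 sites in the TSC22D3 window, and were in 1.85% and 0.991% of all windows. The GC box GGGCGG, left unmarked, had 2 sites in NR3C1, 1 in TSC22D3 and 4 in PER1, and was in 45% of all windows. The KLF9 window, with a GC content of 32.7% against 61.3% to 77.3% in the other 6, matched no transcript start of the GENCODE annotation, so it may not hold the gene's promoter. These matches describe letters in 1 window per gene. NR3C1 and TSC22D3 have other transcript starts, and the window of TSC22D3 covers a start inside the longer transcripts.

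Counted reads per library numbered 58.3 to 77.2 M in degrader samples, 59.4 to 69.3 M in enzalutamide samples, 55.5 to 71.8 M in ligand samples and 60.2 to 74.8 M in vehicle samples. The 8 genes had 778 to 11283 reads in every library. Levels between groups are given in CPM, reads per 1 M counted, scaled by trimmed mean of M values, as mean ± SD over 3 libraries. Changes are log2 fold changes from edgeR's quasi-likelihood test, with 95% confidence intervals, and a change was called where the p-value, adjusted over 17702 genes by the Benjamini-Hochberg method, was under 0.05. All 12 luminal prostate markers passed the filter on low counts, among them KRT8 at 773 CPM and CDH1 at 437 CPM in vehicle cells. Of 9 stromal markers 7 passed it too, among them the collagen gene COL3A1 at 0.80 CPM and decorin (DCN) at 0.29 CPM. Levels of the other markers are not given here, so these genes do not stand for their lists. The basal markers KRT5, KRT14 and TP63 and the leukocyte marker PTPRC were not among the 18668 genes listed, so they could not be analysed. With the degrader 7 of the 12 luminal markers were lower, where 16.4% of all genes were called lower, and 0 were higher. With enzalutamide 3 of the 12 were lower (1.09% of all genes) and 0 higher. Among these 3, the KLK3 call was lost without enzalutamide replicate 2 (adjusted p = 0.0644) and without replicate 1 of every group (0.075). With the ligand KLK2 alone was lower (0.0339% of all genes) and 0 were higher. The KLK2 call was lost when any 1 vehicle or ligand library was left out (adjusted p = 0.0771 to 0.161). Of 7 tested stromal markers 0 changed with the degrader. KRT15, 1 of 2 basal markers, was higher with the degrader and CD68, 1 of 2 leukocyte and endothelial markers, was lower. The KRT15 call was lost without vehicle replicates 1 or 2 (adjusted p = 0.076 and 0.0565) or degrader replicate 1 (0.117). That of CD68 was lost without vehicle replicates 1, 2 or 3 (0.0622, 0.119 and 0.0775) or degrader replicate 2 (0.209). The part of these markers in the results below was not tested. RNA was taken from whole cultures, so fewer cells expressing a gene and less of its RNA per cell cannot be told apart.

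Scaled to transcript length by the authors, as FPKM, the 8 genes ranged from 2.34 to 18.3 FPKM in single libraries. GLUL was highest in every group, at 16.4 ± 0.162 FPKM with the degrader, 17.7 ± 0.484 FPKM with enzalutamide, 17.4 ± 0.51 FPKM with the ligand and 17.3 ± 0.302 FPKM with vehicle. TFCP2L1 was lowest in every group, at 3.27 ± 0.0247 FPKM with the degrader, 2.41 ± 0.067 FPKM with enzalutamide, 2.62 ± 0.175 FPKM with the ligand and 2.48 ± 0.0837 FPKM with vehicle (SD, n = 3 each). The order between these ends differed between groups. With the degrader TSC22D3 stood second, at 11.7 ± 0.898 FPKM, and its libraries (10.7 to 12.5 FPKM) overlapped neither GLUL nor ERRFI1 (10.0 to 10.5 FPKM). ZBTB16, at 9.76 to 10.1 FPKM with the degrader, came after ERRFI1 and overlapped it, and PER1 (8.12 ± 0.501 FPKM), NR3C1 (5.39 ± 0.402 FPKM) and KLF9 (3.92 ± 0.178 FPKM) followed. With enzalutamide ZBTB16 was second at 8.93 ± 0.0474 FPKM and ERRFI1 next at 8.33 ± 0.0672 FPKM, and TSC22D3 (6.56 to 7.52 FPKM) overlapped PER1 (5.99 to 6.99 FPKM). In vehicle cells ZBTB16 was second at 15.7 ± 0.612 FPKM, followed by ERRFI1 (11.7 ± 0.211 FPKM), PER1 (8.25 ± 0.321 FPKM), TSC22D3 (6.79 ± 0.434 FPKM), KLF9 (5.47 ± 0.174 FPKM) and the receptor gene NR3C1 (4.08 ± 0.077 FPKM), and no neighbours in that order overlapped in single vehicle libraries.

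NR3C1, the receptor gene, rose with the degrader and passed the test with neither other compound. It had 35.7, 40.3 and 40.4 CPM in degrader libraries and 29.2, 29.5 and 30.6 CPM in vehicle libraries, so that the lowest degrader library lay above the highest vehicle library. The log2 fold change was 0.38 (interval 0.25 to 0.51, SE 0.06, adjusted p = 0.000174), a rise of 30.2%. With enzalutamide its levels were 28.1, 28.5 and 27.5 CPM, all below the vehicle libraries, and the change of -0.09 (interval -0.22 to 0.04, adjusted p = 0.691) was not called. The ligand libraries, at 31.0, 27.8 and 31.4 CPM, lay on both sides of vehicle (0.01, interval -0.12 to 0.14).

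TSC22D3 showed the largest rise of the 8 genes. Its levels were 27.3, 25.5 and 23.5 CPM with the degrader, against 15.6, 15.2 and 14.0 CPM with vehicle. All degrader libraries lay above all others, and the log2 fold change was 0.77 (interval 0.60 to 0.93, SE 0.08, adjusted p = 1.44e-06), the 467th largest rise of the 17702 genes. With enzalutamide the gene had 15.2, 16.3 and 14.5 CPM and with the ligand 16.2, 16.3 and 13.9 CPM, levels that overlapped with vehicle in both cases. The intervals of these changes, -0.13 to 0.20 with enzalutamide and -0.11 to 0.22 with the ligand, did not reach the change seen with the degrader.

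TFCP2L1, known from kidney collecting duct and pluripotent cells, rose with the degrader as well. It had 33.5, 33.2 and 34.1 CPM in degrader libraries and 24.9, 25.1 and 26.7 CPM in vehicle libraries, without overlap. The log2 fold change was 0.40 (interval 0.28 to 0.52, SE 0.06, adjusted p = 4.93e-05). Enzalutamide libraries (24.4, 24.4 and 25.8 CPM) and ligand libraries (26.9, 25.7 and 28.7 CPM) overlapped with vehicle, at -0.04 (adjusted p = 0.867) and 0.08 (0.829).

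**Figure D1:**
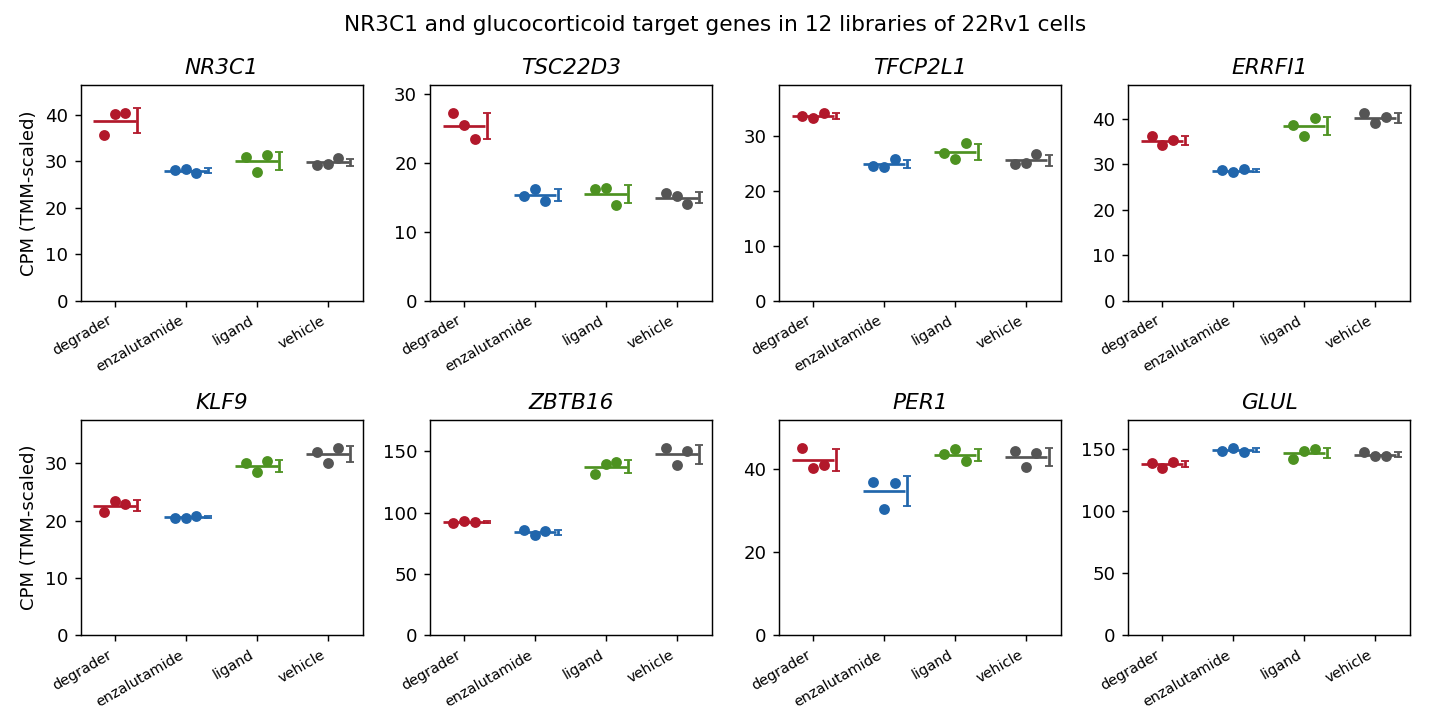
Levels of NR3C1 and 7 glucocorticoid target genes in TMM-scaled CPM (y axis, from 0), for 3 libraries each of degrader, enzalutamide, ligand and vehicle (points; horizontal line, mean; bar at the side, SD). NR3C1, TSC22D3 and TFCP2L1 stand higher with the degrader, ERRFI1, KLF9 and ZBTB16 lower with the degrader and with enzalutamide, and PER1 lower with enzalutamide alone.

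ZBTB16, which encodes the transcription factor PLZF, fell most. It had 91.7, 93.5 and 92.3 CPM with the degrader, 85.5, 81.6 and 84.9 CPM with enzalutamide and 153, 139 and 150.4 CPM with vehicle. Both compounds' libraries lay below every vehicle library. The log2 fold change was -0.67 with the degrader (interval -0.77 to -0.57, SE 0.05, adjusted p = 2.12e-08) and -0.81 with enzalutamide (interval -0.91 to -0.71, SE 0.05, adjusted p = 3.71e-08), the 141st largest fall of all genes with enzalutamide. The ligand libraries had 131, 139.9 and 141 CPM, which overlapped with vehicle, and the change of -0.10 had an unadjusted p of 0.0453 and an adjusted p of 0.66.

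KLF9, a Kruppel-like repressor, followed ZBTB16 at a lower level. Its values were 21.5, 23.4 and 22.9 CPM with the degrader, 20.5, 20.4 and 20.8 CPM with enzalutamide and 31.98, 29.98 and 32.7 CPM with vehicle. It fell by 0.48 on the log2 scale with the degrader (SE 0.06, adjusted p = 6.52e-06) and by 0.62 with enzalutamide (SE 0.06, adjusted p = 4.78e-06), again without overlap with vehicle. With the ligand it stood at 29.96, 28.4 and 30.4 CPM, a change of -0.09 (interval -0.21 to 0.02) that was not called.

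ERRFI1, the EGF receptor inhibitor, fell with both compounds too, by unequal amounts. It had 36.1, 34.1 and 35.4 CPM with the degrader, 28.7, 28.2 and 28.96 CPM with enzalutamide and 41.3, 39.1 and 40.5 CPM with vehicle. The fall with the degrader was 0.19 (SE 0.05, adjusted p = 0.00902; 0.0511 without degrader replicate 2), and that with enzalutamide was 0.49 (SE 0.05, adjusted p = 2.82e-05). Ligand libraries, at 38.6, 36.3 and 40.2 CPM, overlapped with vehicle (-0.07, adjusted p = 0.847).

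PER1, the clock repressor, fell with enzalutamide and not detectably with the other compounds. Its levels were 36.7, 30.4 and 36.5 CPM with enzalutamide and 44.3, 40.3 and 43.7 CPM with vehicle, without overlap, and the log2 fold change was -0.31 (interval -0.46 to -0.16, SE 0.07, adjusted p = 0.0387). This call was lost without vehicle replicates 1, 2 or 3 (adjusted p = 0.142, 0.0532 and 0.151) and without enzalutamide replicates 2 or 3 (0.175 and 0.0578), and with upper-quartile scaling (0.0509). With the degrader PER1 had 45.0, 40.1 and 40.8 CPM, which overlapped with vehicle (-0.03, interval -0.18 to 0.12). With the ligand it had 43.6, 44.6 and 41.8 CPM (0.02, interval -0.13 to 0.17).

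GLUL, the glutamine synthetase gene, was the steadiest of the 8. It had 139, 135 and 139.4 CPM with the degrader, 149, 151 and 148 CPM with enzalutamide, 142, 149 and 149.8 CPM with the ligand and 148, 144 and 144.2 CPM with vehicle. Against vehicle no change was called, and the widest limits of the 3 intervals were -0.16 and 0.12. The degrader libraries nevertheless lay below all vehicle libraries, with a change of -0.08 (adjusted p = 0.151).

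**Figure D2:**
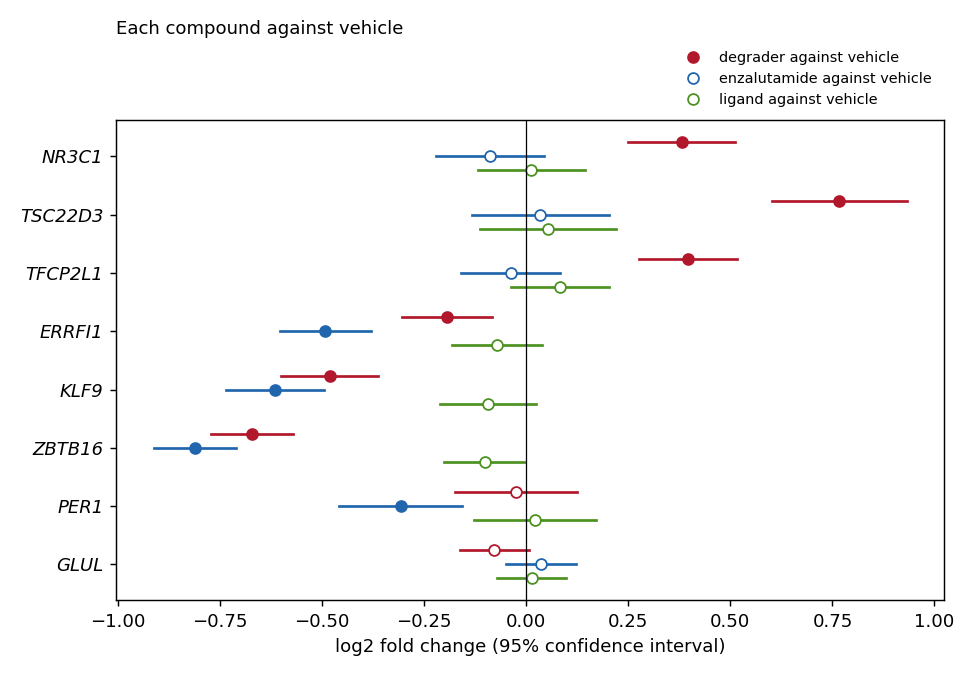
Log2 fold change of each gene (x axis) with its 95% confidence interval, for degrader, enzalutamide and ligand, each against vehicle; filled points passed an adjusted p of 0.05. TSC22D3 at 0.77 with the degrader and ZBTB16 at -0.81 with enzalutamide mark the ends, and every ligand point is open.

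Counted together, 3 of the 8 genes were called higher with the degrader and 3 lower, where 32.7% of all genes tested were called (16.4% in each direction); the median change of the 8 was -0.05, against 0.01 over all genes. With enzalutamide 0 were higher and 4 lower, where 1.44% of all genes were called (0.35% higher and 1.09% lower); the median of the 8 was -0.20, against 0.00 over all genes. With the ligand 0 of the 8 were called by edgeR, 0 by DESeq2 and 0 by limma-voom, 1 had an unadjusted p under 0.05, and 0.237% of all genes were called (0.203% higher and 0.0339% lower). The share called with the degrader, 6 of 8, thus stands beside a high background and that with enzalutamide beside a low one. The comparisons share the 3 vehicle libraries, and the genes were picked with results of these data known. In the authors' deposited table the adjusted p-values of the 8 genes fell on the same side of 0.05 in each of these comparisons, for example 1.76e-18 for TSC22D3 with the degrader and 0.00492 for PER1 with enzalutamide.

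The compounds were then set against each other in 3 pairs, which gave 24 tests on the 8 genes, with p-values adjusted over all genes tested. Against enzalutamide, 6 of the 8 genes were higher with the degrader and 1 was lower, where 32.3% of all genes were called (16.3% higher and 16.1% lower). TSC22D3 differed most, at 0.73 (interval 0.57 to 0.90, adjusted p = 2.59e-06), followed by NR3C1 at 0.47 (0.34 to 0.60, 2.57e-05) and TFCP2L1 at 0.43 (0.32 to 0.55, 2.09e-05). ERRFI1, lower than vehicle with both compounds, was higher with the degrader than with enzalutamide by 0.30 (0.19 to 0.41, 0.000379), and PER1 by 0.28 (0.13 to 0.43, 0.00613). ZBTB16 was higher by 0.14 (0.04 to 0.24, 0.0329) and GLUL lower, at -0.11 (-0.20 to -0.03, 0.0377). Both small differences passed narrowly: without degrader replicates 1, 2 or 3 the adjusted p was 0.0555, 0.0941 and 0.072 for ZBTB16 and 0.0652, 0.139 and 0.0652 for GLUL, without enzalutamide replicates 2 or 3 it was 0.116 and 0.0586 for ZBTB16, and without enzalutamide replicates 1, 2 or 3 it was 0.0781, 0.101 and 0.0776 for GLUL. KLF9 had a difference of 0.13 (interval 0.01 to 0.26, adjusted p = 0.082), which was not called, although the degrader libraries all lay above those of enzalutamide.

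Against the ligand, 3 genes were higher with the degrader and 2 lower, where 28.5% of all genes were called (14.3% higher and 14.2% lower). These were TSC22D3 (0.71, interval 0.55 to 0.88), NR3C1 (0.37, 0.24 to 0.50), TFCP2L1 (0.31, 0.19 to 0.43), ZBTB16 (-0.57, -0.67 to -0.47) and KLF9 (-0.39, -0.51 to -0.27), with adjusted p-values from 2.45e-07 for ZBTB16 to 0.000572 for TFCP2L1. ERRFI1 stood at -0.12 (-0.23 to -0.01, adjusted p = 0.0924; 0.0383 without ligand replicate 2), GLUL at -0.09 and PER1 at -0.05.

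With the ligand against enzalutamide, 4 of the 8 genes were higher and 0 were lower, where 2.04% of all genes were called (1.37% higher and 0.667% lower). The 4 were those that enzalutamide lowered against vehicle. Both comparisons use the same 3 enzalutamide libraries, so that this match is not an independent result. ZBTB16 was higher with the ligand by 0.71 (interval 0.61 to 0.81, adjusted p = 9.69e-08), KLF9 by 0.52 (0.40 to 0.64, 2.93e-05), ERRFI1 by 0.42 (0.31 to 0.53, 0.00014) and PER1 by 0.33 (0.18 to 0.48, 0.0188). The PER1 call was lost without enzalutamide replicate 2 (0.0912) and without ligand replicates 1 or 2 (0.0838 and 0.0787). For TSC22D3 the difference was 0.02, with an interval of -0.15 to 0.19, and for NR3C1 0.10, with an interval of -0.03 to 0.23.

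**Figure D3:**
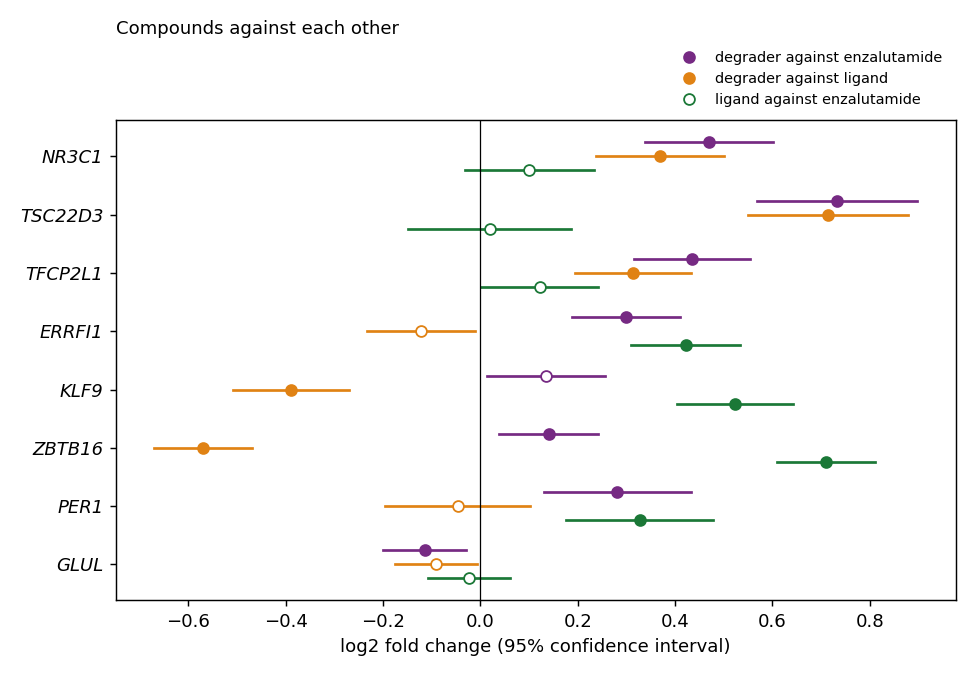
Log2 fold change of each gene (x axis) with its 95% confidence interval, for the degrader against enzalutamide, the degrader against the ligand and the ligand against enzalutamide; filled points passed an adjusted p of 0.05. TSC22D3, NR3C1 and TFCP2L1 lie to the right in both degrader comparisons, whereas ZBTB16 and KLF9 lie to the left of 0 against the ligand and at 0.14 and 0.13 against enzalutamide.

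The rest of the pathway was described from lists of genes chosen by function. For comparison with their counts, 16.4% of all genes were called in each direction with the degrader. With enzalutamide 0.35% were called higher and 1.09% lower. Of 5 steroid receptor genes, NR3C2, the mineralocorticoid receptor gene that also binds cortisol, rose with the degrader beside NR3C1, at 27.7 CPM against 21.1 CPM with vehicle (0.39, adjusted p = 5.79e-05), and 0 fell. The progesterone receptor gene PGR and the oestrogen receptor genes ESR1 and ESR2 were each under 1 CPM in vehicle cells, at 0.25, 0.12 and 0.64 CPM, and were not called. Enzalutamide and the ligand changed 0 of the 5, with NR3C2 at -0.06 and 0.22.

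Chaperones and immunophilins of the receptor complex fell with the degrader in 12 of 18 cases and rose in 0, with a median of -0.25. Of all genes 16.4% were called lower with the degrader and 16.4% higher. HSP90AA1 and HSP90AB1, the cytosolic HSP90 genes, fell by 0.51 and 0.38, and DNAJA1, an HSP70 cochaperone, by 0.35. FKBP5, the immunophilin that lowers the receptor's affinity for steroid and is itself a glucocorticoid target, was at 460 CPM with the degrader, 387 CPM with enzalutamide and 922 CPM with vehicle. Its falls were 1.00 (adjusted p = 1.1e-10) and 1.25 (7.18e-11), and it was the 1 gene of the 18 that changed with enzalutamide. With the ligand 0 of the 18 changed. Receptor coregulators moved in both directions with the degrader, 6 higher and 6 lower of 20, among them the coactivator genes PPARGC1A (1.63, at low levels of 1.40 CPM with the degrader and 0.45 CPM with vehicle) and NCOA1 (0.29) upward and the deacetylase gene HDAC2 (-0.28) and TRIM28 (-0.29) downward. Enzalutamide and the ligand changed 0 of the 20.

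Genes of glucocorticoid metabolism gave a separate picture with enzalutamide. HSD11B2, which inactivates cortisol, was at 17.3 CPM with the degrader, 17.2 CPM with enzalutamide, 19.0 CPM with the ligand and 19.6 CPM with vehicle, and was not called in any of these comparisons; H6PD, which supplies cofactor to the cortisol-activating enzyme, was not called either. Of 9 genes tested 3 rose with enzalutamide, AKR1C2 (0.48), AKR1C1 (0.45) and AKR1C3 (0.28), and 0 fell, where 0.35% of all genes were called higher with enzalutamide. These 3 ketosteroid reductase genes have related sequences, and their reads may be divided between them. With the degrader SRD5A1, a steroid reductase gene, rose by 0.24 on the log2 scale, SRD5A3 fell by 0.27 and AKR1C3 fell by 0.14, a call with an adjusted p of 0.0411 that was lost without vehicle replicates 1 or 2 (0.175 and 0.0712) or degrader replicates 1, 2 or 3 (0.0802, 0.0769 and 0.104).

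Other genes reported as glucocorticoid-induced, 27 of 30 tested, did not move as a body with the degrader. Of the 27, 9 rose and 7 fell, with a median of 0.06, where 16.4% of all genes were called in each direction. The metallothionein genes MT1X (1.58) and MT2A (0.70), S100P (1.10), which encodes a calcium-binding protein, and the transcription factor gene CEBPB (0.95) rose. TXNIP, an inhibitor of thioredoxin and glucose uptake (-1.27), FKBP5, the monoamine oxidase gene MAOA (-0.45) and RGS2, a regulator of G protein signalling (-0.45), fell. With enzalutamide 0 rose and 6 fell, with a median of -0.18, where 1.09% of all genes were called lower. FKBP5, MAOA (-0.67) and SPSB1 (-0.80), a ubiquitin ligase adaptor, were among them, as was RGS2 (-0.23), whose call was lost without vehicle replicates 1 or 2 (adjusted p = 0.0782 and 0.0635) or enzalutamide replicates 1 or 3 (0.0637 and 0.12). With the ligand 1 gene changed, TXNIP, at 374 CPM against 480.2 CPM with vehicle (-0.36, adjusted p = 0.00258). SGK1, a kinase gene widely used as a readout of glucocorticoids, was at 1.64 CPM in vehicle cells and was not called with any compound. Of 16 inflammatory genes that glucocorticoids repress, 7 were tested, and the adhesion gene ICAM1 rose with the degrader (0.69, adjusted p = 0.000603), at low levels of 3.60 CPM with the degrader and 2.23 CPM with vehicle; enzalutamide and the ligand changed 0.

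**Figure D4:**
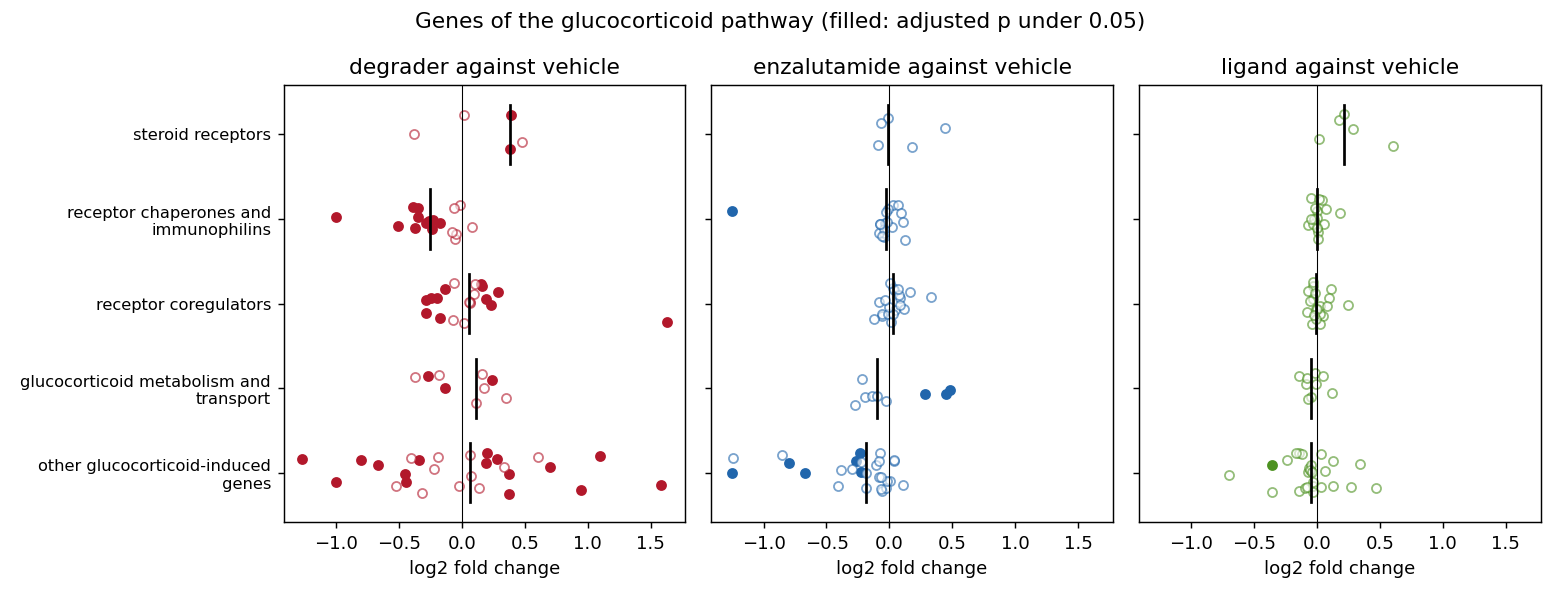
Log2 fold changes (x axis) of genes in 5 lists of the glucocorticoid pathway (rows) for degrader, enzalutamide and ligand, each against vehicle; points are genes, filled where the adjusted p was under 0.05, and the vertical bar is the list's median. Most chaperones lie to the left with the degrader (median -0.25), and the induced genes spread to both sides with the degrader and to the left with enzalutamide (median -0.18).

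The families of single target genes showed how far each change was shared. Beside them, 16.4% of all genes were called in each direction with the degrader. With enzalutamide 0.35% were called higher and 1.09% lower. Of the 4 TSC22 genes, TSC22D3 was the only one called with the degrader, while TSC22D1 was called with enzalutamide (-0.31, adjusted p = 0.000817) and had 0.00 with the degrader. Of 14 Kruppel-like factor genes tested, 8 rose with the degrader and 2 fell, KLF9 and KLF10 (-0.26). Of those 8, KLF6 (0.50), KLF7 (0.30), KLF4 (0.42) and KLF13 (0.54) had the smallest p-values. With enzalutamide 0 rose and KLF9 and KLF4 (-0.38, adjusted p = 0.0298) fell; the KLF4 call was lost without vehicle replicates 1 or 2 (0.137 and 0.116) or any enzalutamide replicate (0.0641 to 0.148). KLF15, a factor that works with the glucocorticoid receptor in metabolism, had changes of 0.28 with the degrader (called), -0.19 with enzalutamide and 0.27 with the ligand.

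Of 22 circadian clock genes, 6 rose and 2 fell with the degrader, where 32.7% of all genes were called (16.4% in each direction). PER1 was the 1 gene of the list called with enzalutamide, where 1.44% of all genes were called. The rises included NR1D2 (0.52), a heme-binding repressor, PER3 (0.91) and CRY2 (0.34), and the falls were NPAS2 (-0.71) and the kinase gene CSNK1E (-0.17). CSNK1E's call was lost without vehicle replicates 1 or 2 (0.111 and 0.0677) or degrader replicate 3 (0.103). PER2, PER1's closest relative in the list, was at 0.14 with the degrader and -0.03 with enzalutamide, neither of which was called. Around ERRFI1, 5 of 22 genes of the EGF receptor family and its feedback rose with the degrader and 3 fell, again beside 16.4% in each direction. Among the 5 were the ligand genes BTC (0.75) and AREG (0.56) and the ubiquitin ligase gene CBLB (0.36). The 3 that fell were ERRFI1, SPRY4 (-0.24) and SPRY1 (-0.54). With enzalutamide ERRFI1 alone was called.

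GLUL, not called against vehicle, belonged to a list of glutamine and glutamate genes of which 8 of 20 rose and 8 fell with the degrader. Asparagine synthetase (ASNS, 0.92), GFPT1 (1.03), which uses glutamine for hexosamines, and the amino acid transporter genes SLC7A5 (0.64) and SLC1A5 (0.60) rose. The transaminase gene GOT2 (-0.45), CTPS1 (-0.33) and PFAS (-0.39), which use glutamine for nucleotides, and the glutamate dehydrogenase gene GLUD1 (-0.27) fell. TFCP2L1 was the only riser among 6 grainyhead and CP2 factor genes, where GRHL2 fell by 0.20, and ZBTB16 was accompanied downward by 4 of the 11 other genes of its partner list, including its corepressor HDAC1 (-0.26) and its ligase partner CUL3 (-0.19), while the polycomb gene BMI1 of that list rose (0.30, adjusted p = 0.0176), a call lost without vehicle replicates 1 or 2 (0.0727 and 0.0901) or degrader replicate 2 (0.0649). The counts over all these lists stand beside 32.7% of all genes called with the degrader (16.4% in each direction), 1.44% with enzalutamide and 0.237% with the ligand. Of 10 FOXO and PI3K pathway genes, 6 rose with the degrader, including FOXO3 (0.37), which encodes a factor known to act on TSC22D3, FOXO1 (0.40), FOXO4 (0.45) and TSC1 (0.53), while AKT1 fell by 0.24; enzalutamide and the ligand changed 0 of the 10.

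The genes whose levels moved most like those of each called gene were sought among 11451 genes with a mean of at least 5 CPM. The measure was the root mean square difference of centred log2 CPM over the 12 libraries. The 8 genes themselves were not among those compared. Also left out were symbols starting with LOC, MIR, SNOR, SCARNA or RNU and those ending in a hyphen and letters. Nearest to TSC22D3 were ATF4 (0.05), SARS1 (0.07) and SLC1A4 (0.08), against a variation of TSC22D3 itself of 0.33 on this scale. ATF4 had changes of 0.79 with the degrader, 0.01 with enzalutamide and 0.05 with the ligand, beside 0.77, 0.03 and 0.05 for TSC22D3. Nearest to NR3C1 were FAM13B, PCYOX1 and CPNE8 (0.04 to 0.05, own variation 0.19), and nearest to TFCP2L1 were ZNF789, FOXO1 and PRNP (0.03 to 0.04, own variation 0.18). MAOA, TBC1D8 and C1orf21 lay nearest to KLF9 (0.05 to 0.06, own variation 0.26), and RASSF3, FOXD4 and DOCK8 to ZBTB16 (0.07 to 0.09, own variation 0.35). For ERRFI1 they were SMPDL3A, GCLC and TBCEL (0.06 to 0.07, own variation 0.19), and for PER1 SLC44A4, ST3GAL5 and NDRG4 (0.07 to 0.09, own variation 0.16). The libraries are the same for every gene, so that these distances are descriptions and carry no test.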

How the data were processed

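The submitters' processing notes name HISAT2, StringTie and the build GRCh37; versions are not given in the sources used here. The authors deposited a whole-number read count and an FPKM value per gene and library, per the file headers, and every listed gene has at least 1 read in each library. A deposited p-value column per compound, headed as Benjamini-Hochberg adjusted, sets it against vehicle; its test is not named. FPKM was used only for levels between genes, and 24 other per-library columns were not used.

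Counts were analysed with edgeR 4.0.16 (R 4.3.3): filterByExpr (minimum count 10, minimum total 15) kept 17702 of 18668 genes, TMM scaling, and a robust quasi-likelihood fit of group over all 12 libraries (8 residual degrees of freedom), tested on simulated data. The 6 contrasts and the alternatives (DESeq2 1.42.0, limma-voom 3.58.1, scaling, filters, libraries left out) are listed with their effects at the end. Replicates differed beyond sampling noise (chi-square per degree of freedom 5.23 to 21.3). Same-numbered replicates were not treated as pairs.

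Genes named were the 8 members, up to 4 called genes with the smallest p per direction, compound and list (19 lists, 248 symbols), and the 3 nearest genes per called member; further genes were chosen after their values were seen. Members and lists were chosen with earlier results of these data known. Promoter sequences are from RefSeq (GRCh38.p14); no coordinates of the authors' build were used.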

Additional observations from a re-analysis of the deposited data

How the results depend on the processing

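Of 720 values recomputed for the 8 genes under the alternatives, 675 kept their direction and their side of the threshold, 26 were no longer called, 3 became called and 16 changed sign. Those 16 were uncalled changes near 0. With libraries left out, TSC22D3 ranged from -0.00869 to 0.0708 for enzalutamide against vehicle and from -0.0196 to 0.0938 for the ligand against enzalutamide, NR3C1 from -0.0149 to 0.0667 for the ligand against vehicle, PER1 from -0.0794 to 0.00691 for the degrader and from -0.0136 to 0.0496 for the ligand against vehicle, and GLUL from -0.0332 to 0.000888 for the ligand against enzalutamide. Without replicate 1 of every group the ligand against enzalutamide gave -0.016 for TSC22D3 and 0.0015 for GLUL, and the ligand against vehicle gave -0.021 for NR3C1; the calls of ERRFI1 (degrader against vehicle, adjusted p = 0.0678), PER1 (enzalutamide against vehicle, 0.153, and ligand against enzalutamide, 0.0562), ZBTB16 (degrader against enzalutamide, 0.0647) and GLUL (same, 0.116) were lost, with fewer libraries. The calls of NR3C1, TSC22D3, TFCP2L1 and KLF9 and those of ZBTB16 other than degrader against enzalutamide were kept under all alternatives. DESeq2 also called GLUL for the degrader against the ligand (0.0385).

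Counts of genes called moved by over 1.5 times as follows. For enzalutamide against vehicle (255) the count was 403 by DESeq2 and 136 without replicate 1 of every group (173 to 218 with 1 library left out). For the ligand against enzalutamide (361) it was 204 without replicate 1 of every group and 229 to 337 with 1 library left out. For the ligand against vehicle (42) it was 121 by DESeq2, 25 with both groups fitted alone, 23 without replicate 1 of every group and 21 to 77 with 1 library left out. The libraries that moved it by over 1.5 times were vehicle replicates 2 and 3 (24 and 21) and ligand replicates 1, 2 and 3 (22, 25 and 77), and for the ligand against enzalutamide enzalutamide replicate 3 (229). The cause was not tested. The number of the 8 genes called stayed within 1.5 times of its main value throughout, at 5 to 7 for the degrader against enzalutamide, 5 to 6 against the ligand and 5 to 6 against vehicle, 3 to 4 for enzalutamide against vehicle and for the ligand against enzalutamide, and 0 for the ligand against vehicle.

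Same-numbered replicates of different groups had correlations of their deviations of -0.032 to 0.207 over 18 pairs (median 0.085), and different-numbered ones of -0.169 to 0.074 over 36 pairs (median -0.048); 7 of 12 libraries correlated best with their own number in every other group, a hint from the data and not from the design. With the replicate number as a block, 553 genes were called for enzalutamide against vehicle, 613 for the ligand against enzalutamide and 191 for the ligand against vehicle, and ERRFI1 was called for the degrader against the ligand (adjusted p = 0.0412); no other call of the 8 genes changed with the block.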
